A study of Rattus norvegicus with 6 samples.

Results

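The genes of interest here encode proteins of the regulated secretory pathway, measured in paraventricular nucleus tissue (hypothalamus) from male Holtzman rats 24 h after furosemide. They were Vgf (ENSRNOG00000001416), Scg2 (ENSRNOG00000015055), Pcsk1 (ENSRNOG00000011107) and Pcsk2 (ENSRNOG00000005438), 4 of the 32402 gene identifiers in the count table. The set was put together by function, at a time when earlier results of these data were known. The symbols come with the definition of the set and could not be checked, because the reference gene table used here lists no Ensembl identifiers. Furosemide, a loop diuretic that causes urinary sodium loss, was given once at 10 mg/kg, and these rats then had a sodium-poor diet and distilled water. The injection and diet of the control rats are not stated in the labels. Each group had 9 rats, pooled by 3 into 3 libraries. Such libraries average the whole tissue piece, so fewer cells of a type and less RNA per cell cannot be told apart.

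Neuroendocrine neurons store peptide hormones in dense-core granules and release them by exocytosis. Vgf encodes a neuronal granule protein, itself a precursor of several peptides, and Scg2 encodes secretogranin II, a granin that helps granules form and is the precursor of the peptide secretoneurin. Pcsk1 and Pcsk2 encode the subtilisin-like endoproteases that cut prohormones at pairs of basic residues inside the granule. In the paraventricular nucleus their substrates include the precursors of vasopressin, oxytocin, corticotropin-releasing hormone and thyrotropin-releasing hormone. Vgf and Scg2 are known as genes that respond to cyclic AMP through CREB, a factor that binds the cyclic AMP response element (CRE).

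Promoter sequences were available from RefSeq (GRCr8) for 3 of the 4 genes, Vgf, Scg2 and Pcsk2. They are shown because these 3 genes differ in whether the 250 bases searched hold a full CRE. Pcsk1 could not be compared. The 150 bases before the annotated start lie at chr12:25277021-25277170 (minus strand) for Vgf, chr9:88256867-88257016 (minus strand) for Scg2 and chr3:151333788-151333937 (plus strand) for Pcsk2. They are written 5′ to 3′ on the strand of the gene. Capitals mark matches, on either strand, to the full CRE (TGACGTCA), its core (TGACG), the GC box (GGGCGG) or the TATA box (TATAAA).
Vgf: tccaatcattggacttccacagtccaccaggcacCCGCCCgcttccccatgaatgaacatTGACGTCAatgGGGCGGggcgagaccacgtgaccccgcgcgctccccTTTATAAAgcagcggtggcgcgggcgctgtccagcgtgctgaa
Scg2: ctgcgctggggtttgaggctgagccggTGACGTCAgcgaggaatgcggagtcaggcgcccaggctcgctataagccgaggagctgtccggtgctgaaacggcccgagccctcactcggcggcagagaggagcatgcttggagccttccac
Pcsk2: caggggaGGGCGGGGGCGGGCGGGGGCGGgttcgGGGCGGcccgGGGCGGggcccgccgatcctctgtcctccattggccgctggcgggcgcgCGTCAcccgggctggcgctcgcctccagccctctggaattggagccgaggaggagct

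In the 250 bases before the start, Vgf and Scg2 each held 1 full CRE, and Pcsk2 held none. Among 33469 rat promoters of that length, 1.59% held one. Counting the last base before the start as -1, the CRE of Vgf began at -90 and that of Scg2 at -123. Pcsk2 held 1 core outside a full element, beginning at -57 on the opposite strand, and 18.2% of promoters held at least 1 core, those inside full elements included. Vgf also held a TATA box in 2 overlapping readings on opposite strands (12.9% of promoters held at least 1). GC boxes numbered 2 in Vgf, 0 in Scg2 and 7 in Pcsk2, some of the last overlapping one another (30.5% of promoters held at least 1). The window of Pcsk2 was 79.6% G or C, against 61.6% for Vgf, 53.6% for Scg2 and a median of 51.2% over all promoters. No match to the AP-1 sequence (TGANTCA, in 6.34% of promoters) was present in the 3 windows. A match describes letters and is not evidence that a factor binds there.

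**Figure D1:**
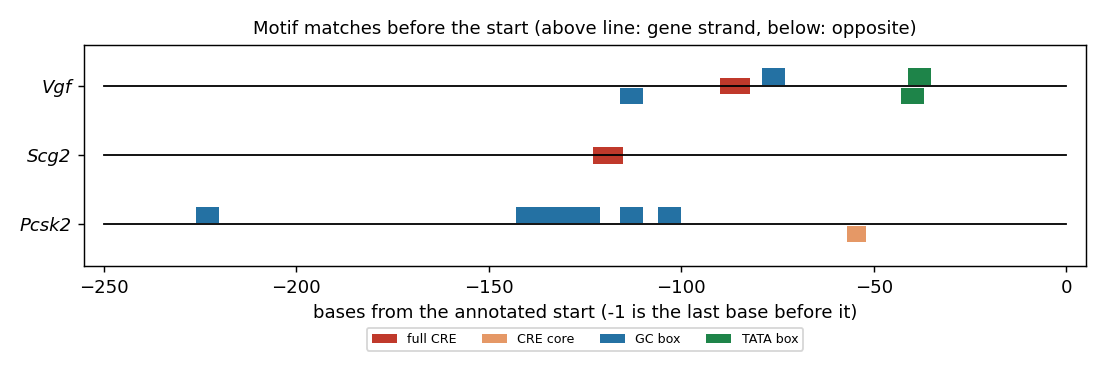
Motif matches in the 250 bases before the annotated start of Vgf, Scg2 and Pcsk2, by distance from the start in bases. Matches above a line are on the strand of the gene, those below on the opposite strand, and the full CRE, which reads the same on both, is centred; Vgf and Scg2 have 1 full CRE each and Pcsk2 has a cluster of GC boxes.

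None of the 4 genes passed the threshold for furosemide against control, an adjusted p of 0.05 by the edgeR quasi-likelihood test (0 of 4), and 0% of the 16344 genes tested passed it. At an unadjusted p under 0.05 there was 1 of the 4, Pcsk1, against 8.09% of all genes in either direction and 4.27% in the lower direction. By adjusted p, DESeq2 called 0 of the 4 (0.365% of the 10957 genes it gave an adjusted p) and the edgeR exact test 0 of the 4 (0.275% of 16344). Limma-voom with sample quality weights called 0 of the 4 (0% of 16344). No member had furosemide values wholly below the control values in CPM (counts scaled to a common library size with TMM factors), a pattern that 6.82% of tested genes showed. The median log2 fold change of the 4 genes was -0.06, against 0.00 over all genes tested. The median size of change was 0.056 for the 4 genes, 0.06 over all genes tested and 0.045 over the 10656 genes averaging 10 CPM or more. Library totals ran from 20911950 to 22495415 counts. CPM is not divided by transcript length, so the levels of different genes are not compared with each other.

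Vgf, the granule protein and peptide precursor, was the most variable of the 4 after furosemide. In controls it had the lowest coefficient of variation of the 4 (2.94%, with 3.1% for Scg2). Its level was 221.7, 222.8 and 211.2 CPM in control libraries 1, 2 and 3, and 186.0, 187.5 and 243.1 CPM in furosemide libraries 1, 2 and 3. Furosemide 1 and 2 lay below every control library, whereas furosemide 3 lay above every control library, so the groups overlapped. The control mean was 218.6 ± 6.42 CPM and the furosemide mean 205.5 ± 32.6 CPM (SD, n = 3 each). The log2 fold change, -0.09, had a standard error of 0.08, and the 95% confidence interval of the change ran from -16.2% to 5.48% (edgeR adjusted p = 0.818).

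The spread of Vgf lay in the furosemide group. Its coefficient of variation was 2.94% over control libraries and 15.8% over furosemide libraries, where the counting of reads alone would give 1.47%. On the log2 scale its within-group standard deviation of 0.16, pooled over both groups, exceeded that of 95.9% of the 10656 genes averaging 10 CPM or more. Furosemide 3 had 5432 Vgf counts, against 4178 and 4103 in the other libraries of its group, and stood at 1.30 times their mean CPM. Without furosemide 3 the log2 fold change of Vgf was -0.23 with a 95% interval of -0.31 to -0.15 and an unadjusted p of 4.71e-05, but the edgeR adjusted p was 0.139. That fit drops the only furosemide library above the controls and keeps furosemide 1 and 2, close together at 186.0 and 187.5 CPM. Its narrow interval and small unadjusted p follow from that removal and are not a separate test. Without furosemide 1 or furosemide 2 the log2 fold change was -0.02 or -0.03. The estimate for Vgf was therefore set by which furosemide pools were included.

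Furosemide 3 was also compared with the other libraries over all genes of at least 10 CPM. It had 70 genes that exceeded all 5 other libraries by 1.1-fold or more, the lowest number among the 6 libraries, which ranged up to 106. Vgf was not among these 70, as its level in furosemide 3 was 1.09 times that of the next highest library. Furosemide 3 had 181 genes that were below all 5 other libraries by 1.1-fold or more, the highest number, where the others had 68 to 129. The part of these differences in the Vgf value was not tested.

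Scg2, the granin, was nearly level across all 6 libraries. It stood at 1258, 1316 and 1336 CPM in controls and at 1266, 1276 and 1308 CPM after furosemide. All 3 furosemide values fell inside the control range. The means were 1304 ± 40.5 CPM and 1283 ± 22 CPM (SD, n = 3 each), and the log2 fold change, -0.02, had a standard error of 0.03 (edgeR adjusted p = 0.909). Counts ran from 27143 to 29231 per library, and the 95% interval of the change from -6.39% to 3.57%. Its within-group standard deviation exceeded that of 16.7% of genes of at least 10 CPM.

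**Figure D2:**
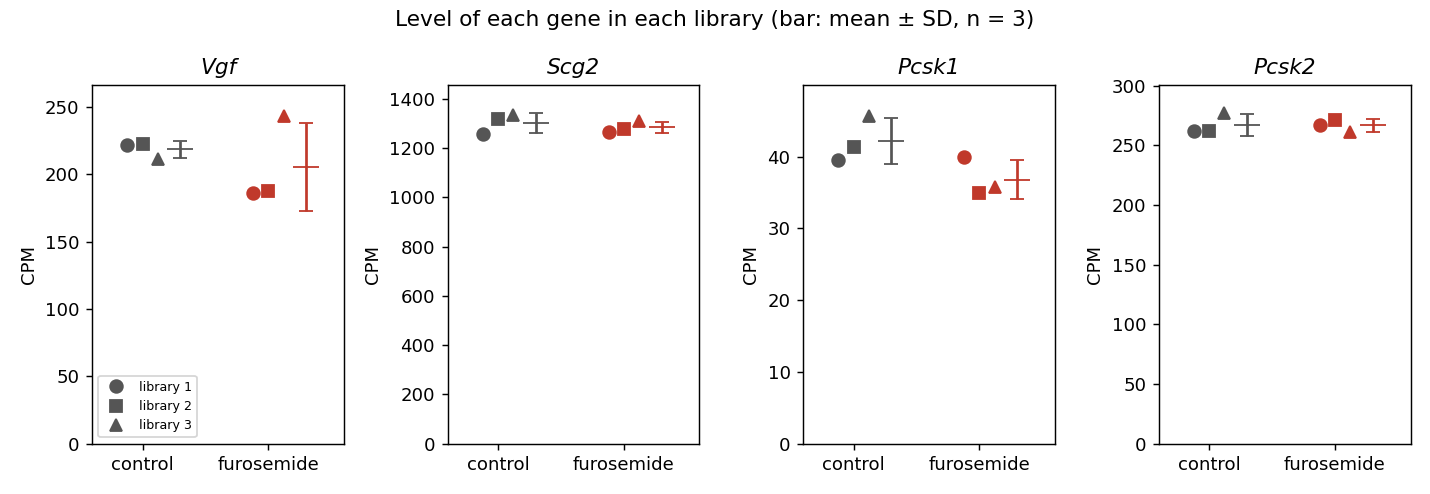
CPM of Vgf, Scg2, Pcsk1 and Pcsk2 in each of the 3 control and 3 furosemide libraries, with axes starting at 0; symbols mark the library number within a group and bars give the mean ± SD. The Vgf value of furosemide library 3 (243.1 CPM) stands above all others, while Scg2 and Pcsk2 are nearly level.

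Pcsk1, the convertase that begins the cutting of many prohormones, had the largest estimated difference of the 4. Its level was 39.5, 41.3 and 45.7 CPM in controls and 39.9, 34.9 and 35.7 CPM after furosemide. Furosemide 2 and 3 lay below every control library, and furosemide 1 lay just above control 1. The means were 42.2 ± 3.19 CPM and 36.8 ± 2.69 CPM (SD, n = 3 each). The log2 fold change, -0.20, had a standard error of 0.07, and the 95% interval of the change ran from -20.7% to -3.83%. The unadjusted p was 0.00941 and the edgeR adjusted p over all genes was 0.487, so the difference did not pass. In size the change exceeded that of 97.7% of genes of at least 10 CPM. Its spread was also larger than for most, the within-group standard deviation of log2 CPM (0.105) exceeding that of 84.2% of these genes.

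Pcsk1 rested on the fewest reads, 763 to 950 counts per library. Counting alone would give a coefficient of variation of 3.41%, and the observed values were 7.55% in controls and 7.31% after furosemide. Leaving out 1 library gave log2 fold changes from -0.26 (without furosemide 1) to -0.135 (without control 3). Without control 3, the library with the highest level, the 95% interval reached from -0.28 to 0.01 and the unadjusted p was 0.0626.

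Pcsk2, the convertase that acts later in the maturation of many neuropeptides, stood at nearly the same level in both groups. Its level was 261.8, 261.8 and 277.4 CPM in controls and 267.1, 271.6 and 261.3 CPM after furosemide. The 2 groups overlapped almost fully, with the highest value in control 3 and the lowest in furosemide 3. The means were 267.0 ± 9.02 CPM and 266.7 ± 5.16 CPM (SD, n = 3 each). The log2 fold change, 0.00, had a standard error of 0.03, a 95% interval of -5.10% to 5.14% and an edgeR adjusted p of 0.997. The change was smaller than that of nearly all genes of at least 10 CPM, exceeding 2.06% of them.

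**Figure D3:**
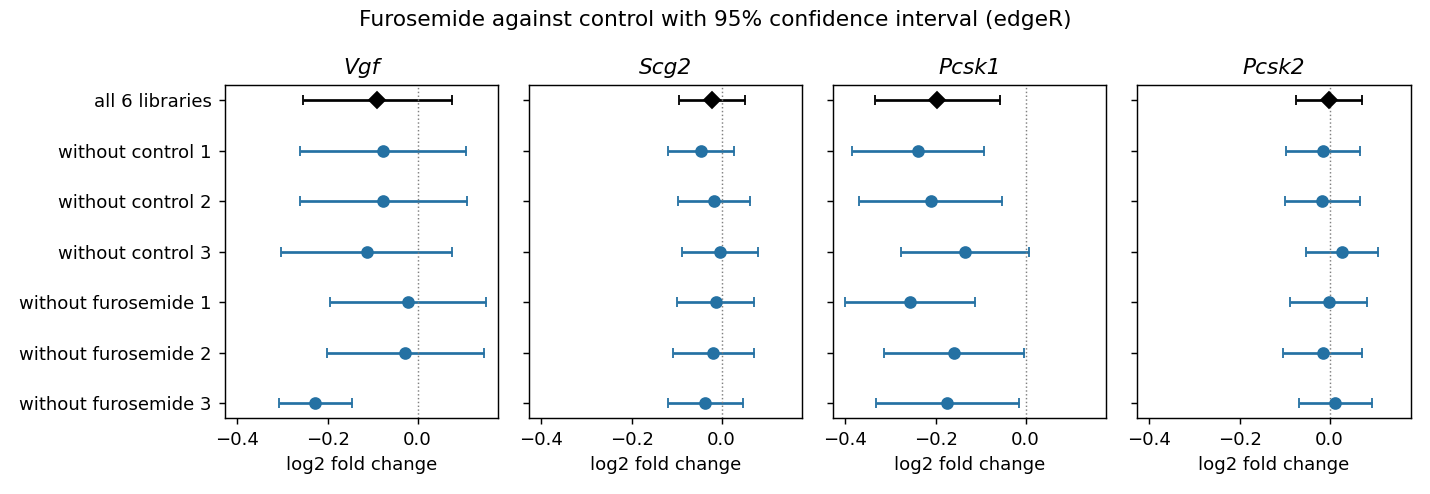
Log2 fold change of each gene, furosemide against control, with its 95% confidence interval from edgeR, for all 6 libraries (black) and with each library left out (blue). Vgf moves from -0.09 to -0.23 without furosemide 3, and the interval for Pcsk1 reaches 0 without control 3.

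**Figure D4:**
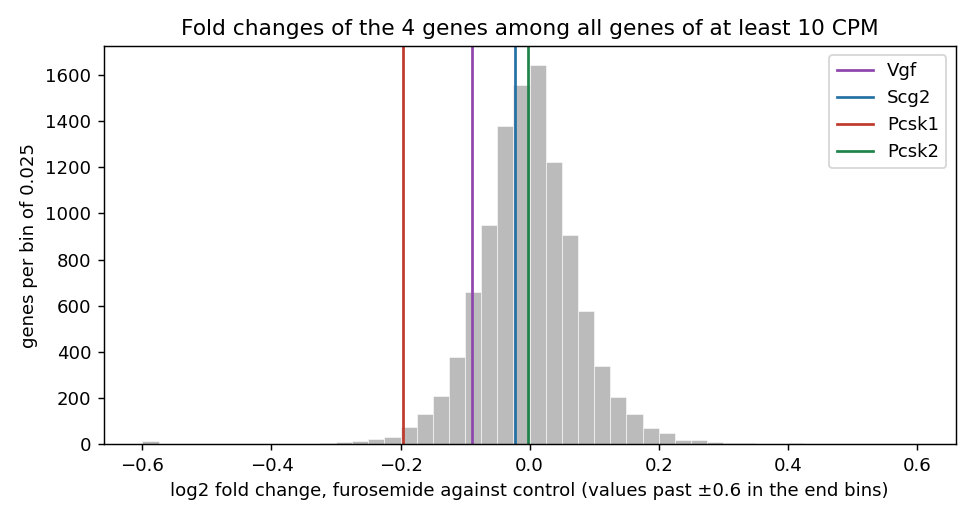
Number of genes by log2 fold change, in bins of 0.025, for the 10656 genes averaging 10 CPM or more, with vertical lines at the 4 genes. Pcsk1 at -0.20 lies in the lower tail and Scg2 and Pcsk2 lie in the centre.

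Whether the paired genes shifted against each other was asked with count ratios inside each library, which do not depend on scaling. Pcsk1 had 15.1, 15.8 and 16.5 counts per 100 Pcsk2 counts in controls, and 14.9, 12.8 and 13.7 after furosemide. All 3 furosemide ratios lay below all 3 control ratios, as did the ratio to Pcsk2 for 4.85% of the other tested genes. The closest were control 1 (15.1) and furosemide 1 (14.9), and in CPM these libraries had the other order (39.5 and 39.9 for Pcsk1). As Pcsk2 was nearly level, the ratio largely repeats the Pcsk1 values and is not a separate result. The mean ratio was 15.8 ± 0.691 for control and 13.8 ± 1.06 for furosemide libraries (SD, n = 3 each), a log2 difference of -0.20. The two-sided exact permutation test over libraries gave p = 0.1, the smallest value 3 libraries against 3 can reach, and 0.2 after adjustment over the 2 ratios tested. Leaving out 1 library gave log2 differences between -0.25 and -0.14.

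Vgf had 17.6, 16.9 and 15.8 counts per 100 Scg2 counts in controls, and 14.7, 14.7 and 18.6 after furosemide. The groups overlapped because of furosemide 3, the highest of all 6. The log2 difference was -0.08 (two-sided exact permutation p = 0.6, adjusted p = 0.6). It was -0.19 without furosemide 3 and -0.02 without furosemide 1 or without furosemide 2.

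**Figure D5:**
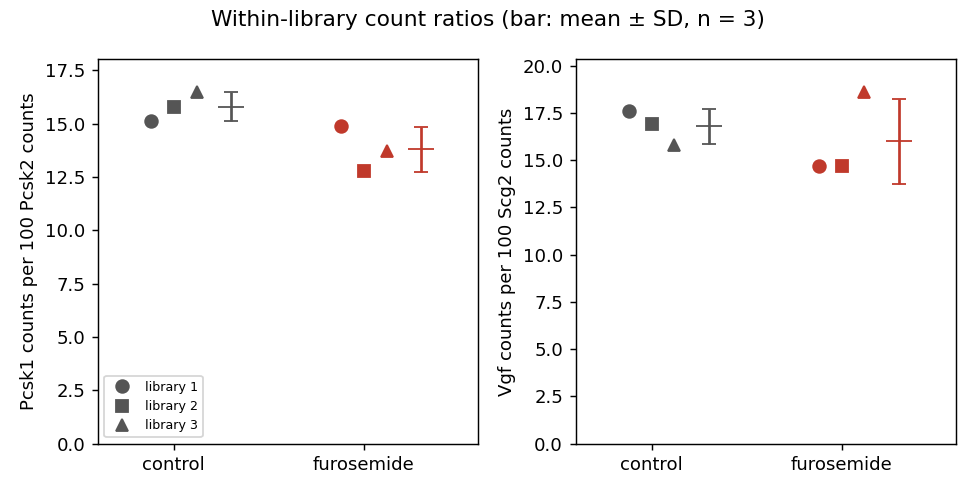
Counts of Pcsk1 per 100 counts of Pcsk2 (left) and of Vgf per 100 counts of Scg2 (right) in each library, with axes starting at 0 and bars for the mean ± SD of 3 libraries. The 3 furosemide ratios of Pcsk1 to Pcsk2 (12.8 to 14.9) lie below the 3 control ratios (15.1 to 16.5).

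The gene most like each member in pattern was sought among 10652 other genes of at least 10 CPM, as the highest Pearson r of log2 CPM over the 6 libraries. For Vgf it was ENSRNOG00000012026 (r = 0.9889), for Scg2 ENSRNOG00000053889 (r = 0.981) and for Pcsk2 ENSRNOG00000002553 (r = 0.9885). That of Pcsk1 had the highest r, 0.9969, and is not named because at most 2 identifiers without a symbol that were lower after furosemide are given. At the lower bar of an r of at least 0.9, there were 71, 84, 119 and 56 of the 10652 genes for Vgf, Scg2, Pcsk1 and Pcsk2. Each highest r was picked from that many genes over only 6 libraries. The values are given as a description of these libraries.

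Other genes of the pathway, among them the chromogranins, carboxypeptidase E, the amidating enzyme and the hormone precursors, were listed by symbol in 5 lists and could not be matched to identifiers. The same holds for 11 lists of markers of cell types and neighbouring regions. The labelled tissue was therefore not checked against its markers, and the cell content of the pools that differ in Vgf or Pcsk1 was not tested.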

How the data were processed

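Poly(A) RNA was sequenced from 6 pools of paraventricular nucleus, 3 control and 3 furosemide. The deposited values are whole-number read counts per Ensembl gene, not normalized by the authors; the submitters' processing notes name FastQC, TopHat, HTSeq and edgeR but no version or role. Build, annotation and use of strand were not given in the sources used here; reads of genes overlapping on opposite strands may then not be separated. Columns were assigned to libraries by group and number in their names.

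The members and lists were chosen with earlier results of these data known. In R 4.3.3, genes passing filterByExpr of edgeR 4.0.16 (16344 of 32402, all 4 members among them) were scaled by TMM and tested with glmQLFit (legacy form) and glmQLFTest, treatment being the only term. P-values were adjusted by Benjamini-Hochberg over all genes tested (threshold 0.05), never over the 4 alone. The standard error is the log2 fold change over the root of F. Log2 CPM used a prior count of 2. Within-library ratios used the exact permutation test. The fit was tested on simulated data. Genes named were the 4 members and, by pattern, the gene with the highest r for each, limited to 2 identifiers lower and 2 higher after furosemide because identifiers had no symbols (0 of 32402 matched), which leaves out that of Pcsk1. Labels do not say that pools were handled separately after dissection, so p-values measure the spread between pools, which may be partly technical. Pairs of libraries differed by more than sampling noise (mean chi-square per gene of 2.60 to 5.67), so none were copies. Alternatives were other scalings and filters, limma-voom with sample quality weights (limma 3.58.1), DESeq2 1.42.0, the exact test of edgeR and robust dispersions. Further alternatives were a replicate block, leaving out each library, an exact permutation test and, added after seeing the data, the non-legacy fit.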

Additional observations from a re-analysis of the deposited data

How the results depend on the processing

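Of 18 alternative analyses for each gene, 17 gave an adjusted p, and none of the 4 genes passed the threshold in those; the lowest adjusted p was 0.139 for Vgf, 0.754 for Scg2, 0.317 for Pcsk1 and 0.932 for Pcsk2. Vgf, Scg2 and Pcsk1 were lower after furosemide in all 18 alternatives. With all 6 libraries kept, the log2 fold change ran from -0.122 to -0.085 for Vgf, from -0.028 to -0.019 for Scg2 and from -0.196 to -0.192 for Pcsk1. The -0.122 for Vgf came from limma-voom with sample quality weights. Pcsk2 changed sign in 4, at 0.002 with upper-quartile factors and 0 with library size alone, and ran from -0.016 to 0.027 when 1 library was left out. The exact permutation test on log2 CPM gave p = 0.4 for Vgf, 0.6 for Scg2, 0.2 for Pcsk1 and 0.8 for Pcsk2, where 0.1 is the smallest possible. The number of all genes called was 0 in the quasi-likelihood test (1322 at an unadjusted p under 0.05), 28 without a low-count filter, 4 with robust dispersions, 40 in DESeq2 and 45 in the edgeR exact test, and 0 to 17 when 1 library was left out, the most without control 1; the cause was not tested. With a replicate block 1 gene was called, none of the 4, but same-numbered libraries showed no shared deviation (r of -0.13, -0.01 and -0.03 across genes of at least 10 CPM), so the numbers were not read as pairs. Counting alone would give coefficients of variation of 3.41% for Pcsk1, 1.47% for Vgf, 1.31% for Pcsk2 and 0.596% for Scg2.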

Other observations

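No correlation between the 4 genes across the 6 libraries passed an adjusted p of 0.05. Pearson's r of log2 CPM over the 6 pairs of genes ran from -0.55 (Vgf and Pcsk2) to 0.49 (Scg2 and Pcsk1), with exact permutation p from 0.256 to 0.958 and adjusted p from 0.593 to 0.958. Spearman's rho ran from -0.71 (Vgf and Pcsk2) to 0.54 (Scg2 and Pcsk1), with exact permutation p from 0.136 to 1 and adjusted p from 0.677 to 1. Some values changed sign or size when the 2 libraries farthest from the median of the first gene were left out. Without furosemide 1 and 2, which leaves the 3 controls and furosemide 3, r with Vgf went from 0.44 to -0.19 for Scg2, from 0.04 to -0.96 for Pcsk1 and from -0.55 to -0.71 for Pcsk2. Without control 1 and 3, r with Scg2 went from 0.49 to 0.19 for Pcsk1 and from 0.32 to -0.84 for Pcsk2. Without control 3 and furosemide 2, r of Pcsk1 with Pcsk2 went from 0.39 to 0.30. Each r with 2 libraries left out rests on very few libraries and was not tested. No relation between the genes is read from these values.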
